A study of Mus musculus with 4 samples.

Results

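Cycling cells are the cells of a tissue that are copying their DNA or dividing, and here they were chosen by their own RNA. In 4 single-cell libraries of CD45+ liver cells, a cell was selected on the summed UMIs (unique molecular identifiers, counts of captured RNA molecules) of Mki67, Top2a, Ube2c and Birc5, of which it needed 4 or more. Only cells with 600 to 6000 detected genes and at most 5% mitochondrial UMIs were kept. The rule selected 1922 of 36286 kept cells, out of 39121 deposited. By library these were 386 of 10283 cells of young WT, 645 of 8329 of treated WT, 373 of 7824 of miR-146a-/- and 518 of 9850 of DKO.

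The study asked how loss of the microRNA miR-146a, and then of the chemokine Ccl5 as well, changes the immune cells of a liver in which tumours form. Each group was 1 library of sorted CD45+ cells from female C57BL/6 mice, sequenced from the 5 prime end of the RNA, and the number of mice behind a library is not stated. Young WT mice were untreated and about 8 weeks old. The treated mice received the liver carcinogen diethylnitrosamine (DEN) once, at 25 mg/kg into the peritoneum at 14 days of age. From weaning at 21 days they ate a choline-deficient diet with 60% fat, and by the labels they were 36 weeks old at collection. They were wild type (treated WT), miR-146a-/-, or miR-146a-/- and Ccl5-/- together (DKO). Both deletions are carried in every cell of the body. Young WT and treated WT differ in age, DEN and diet at once, so these cannot be told apart. The libraries held 90756272, 103165826, 88706063 and 103147246 UMIs in the order young WT, treated WT, miR-146a-/- and DKO, which all lists of 4 values below follow.

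Treated WT served in 2 of the 3 comparisons, and so did miR-146a-/-, so a comparison shares a library with the next. Any pair of libraries had between 109 and 150 cell barcodes in common, at most 1.64% of the smaller library, and 0 of these barcodes were cycling cells in both. With 1 library per group no difference has a replicate check, and no test was run. The intervals below are 95% intervals for counting error only.

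A dividing lymphocyte first copies its DNA in S phase, using the MCM helicase, PCNA and the enzymes that make nucleotides, and then builds a spindle in G2 and M phase with kinases such as CDK1 and PLK1. The anaphase-promoting complex then marks cyclin B and securin for destruction, and the sister chromatids part. In liver, most leukocytes are at rest, and those that divide include T cells and NK cells activated in place, precursors of dendritic cells, and plasmablasts or germinal centre B cells on their way to making antibody.

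The 4 genes of the rule have different jobs in division. Mki67 encodes the Ki-67 protein that coats mitotic chromosomes, Top2a the topoisomerase that untangles DNA, Ube2c the ubiquitin-conjugating enzyme of the anaphase-promoting complex, and Birc5 survivin, part of the chromosomal passenger complex. Genes of late division are often switched together through CCAAT boxes and through the cell-cycle homology region, CHR, so the promoters of the 4 genes are shown with that of Pttg1, the securin gene described further on. The windows run from 250 bases before to 50 bases after the annotated start, as RefSeq gives them for mm10, each on the strand of its gene: chr7:135716330-135716629 (minus strand), chr11:99024140-99024439 (minus), chr2:164769679-164769978 (plus), chr11:117848987-117849286 (plus) and chr11:43425932-43426231 (minus). Capitals mark matches on either strand to CCAAT, to TTTGAA or TTTAAA (CHR), and to TTTGGCGC, TTTCGCGC or TTCCCGCC (E2F).
Mki67: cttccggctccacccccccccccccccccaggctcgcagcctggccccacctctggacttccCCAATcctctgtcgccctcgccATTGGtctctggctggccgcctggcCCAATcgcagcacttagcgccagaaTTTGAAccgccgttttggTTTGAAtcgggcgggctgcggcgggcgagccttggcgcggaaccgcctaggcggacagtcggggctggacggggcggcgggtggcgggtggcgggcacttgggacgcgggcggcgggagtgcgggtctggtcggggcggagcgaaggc
Top2a: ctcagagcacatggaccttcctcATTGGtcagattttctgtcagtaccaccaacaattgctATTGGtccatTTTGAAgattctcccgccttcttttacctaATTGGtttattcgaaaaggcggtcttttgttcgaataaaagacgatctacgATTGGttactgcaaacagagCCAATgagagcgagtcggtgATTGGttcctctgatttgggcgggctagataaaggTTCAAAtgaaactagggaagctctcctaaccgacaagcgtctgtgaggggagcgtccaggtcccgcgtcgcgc
Ube2c: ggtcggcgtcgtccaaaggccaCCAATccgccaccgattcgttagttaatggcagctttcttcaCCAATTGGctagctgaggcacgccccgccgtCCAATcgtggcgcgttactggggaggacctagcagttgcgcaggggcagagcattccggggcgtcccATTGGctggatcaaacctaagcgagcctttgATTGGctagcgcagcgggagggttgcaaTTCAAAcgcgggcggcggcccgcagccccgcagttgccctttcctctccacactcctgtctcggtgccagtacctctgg
Birc5: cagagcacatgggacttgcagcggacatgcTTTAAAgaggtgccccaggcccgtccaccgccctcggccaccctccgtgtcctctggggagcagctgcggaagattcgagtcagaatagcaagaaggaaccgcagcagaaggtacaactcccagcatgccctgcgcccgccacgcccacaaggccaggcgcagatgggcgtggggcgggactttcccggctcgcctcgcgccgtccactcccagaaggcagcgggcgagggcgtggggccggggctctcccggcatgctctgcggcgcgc
Pttg1: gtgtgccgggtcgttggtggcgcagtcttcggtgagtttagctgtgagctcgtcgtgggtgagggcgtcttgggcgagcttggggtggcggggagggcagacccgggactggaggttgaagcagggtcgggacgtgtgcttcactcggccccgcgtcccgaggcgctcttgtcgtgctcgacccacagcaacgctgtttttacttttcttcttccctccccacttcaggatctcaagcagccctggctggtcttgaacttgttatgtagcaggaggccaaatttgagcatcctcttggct

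Mki67 had 3 CCAAT and 2 CHR matches, Top2a 6 and 2, Ube2c 6 and 1, and Birc5 0 and 1. In Ube2c, a CCAATTGG run reads the same on both strands and gave 2 of the 6 matches. The Pttg1 window had 0 matches to any of the 3 motifs, but it lies inside the annotated span of the gene, which reaches 43426251 in GENCODE, so bases upstream of that end were not read. The E2F forms were found in 0 of the 5 windows. No base lay in more than 1 motif. Among all 27025 mouse promoters of this length, 37.9% held CCAAT, 27.8% CHR and 3.03% E2F. Of the 29 G2 and M phase genes with a promoter in the table, 24 (82.8%) held CCAAT, 26 (89.7%) CHR and 1 (3.45%) E2F. Of the 27 S phase genes, 15 (55.6%) held CCAAT, 7 (25.9%) CHR and 11 (40.7%) E2F. A match describes the letters of a window and is not evidence of a site in use.

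The marker genes that chose the cells were carried by most of them. Mki67 had a UMI in 96.4, 93.2, 92.5 and 91.5% of cycling cells and Top2a in 87.8, 93.2, 86.3 and 86.7%. Ube2c was found in 72.3, 64.7, 71.0 and 70.8% and Birc5 in 78.2, 76.7, 76.7 and 78.96%. The 4 libraries were alike in these shares, with Ube2c lowest in treated WT. All 4 genes together were found in 224, 356, 210 and 290 cycling cells. Levels are given in CPM, the UMIs of a gene per 1000000 UMIs summed over the cells described. Mki67 was at 676, 662, 616 and 622 CPM in cycling cells and at 7.23, 11.4, 9.30 and 8.15 CPM in the other kept cells.

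At the threshold the population was graded. The 163 cells with a sum of exactly 4 carried Cdk1, the kinase that starts mitosis, in 18.4% and Ccnb2, a cyclin B, in 16.6%. The 410 cells with a sum of 3, just outside, carried Cdk1 in 12.9% and Ccnb2 in 9.51%. Pcna, the replication clamp, was in 58.9% of the first and 53.2% of the second, and Stmn1, a tubulin-binding protein, in 52.8% and 33.2%. Cells below the threshold therefore include some with division genes on.

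The cycling cells were deeper than the others, which the rule partly fixes, since a deeper cell reaches 4 UMIs more easily. Their median was 19580, 18231, 20049 and 19366 UMIs, against 6661, 7846, 7678 and 7288 in the other cells, a ratio of 2.94, 2.32, 2.61 and 2.66. Median depth rose with the sum of the 4 genes, from 10155 and 12496 UMIs at sums of 2 and 3 to 14958 and 17042 at 4 and 5, so how far the depth belongs to division cannot be told from these values. Since a deeper cell shows any gene more often, shares of cells were also computed with every cell reduced at random to 3000 UMIs (thinned). For the share of cells that cycled and for the lineage mix, the rule was then 2 or more thinned UMIs of the 4 genes. For the share of cycling or other cells with given genes, cells kept their call from all UMIs. For marker lists, lineage was read from the thinned counts. Thinning left out 1351, 857, 542 and 798 cells with fewer than 3000 UMIs, of which 10, 8, 3 and 5 were cycling.

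The targeted gene Ccl5 was read first, as a check of the labels. In cycling cells Ccl5 summed to 2420.2, 7706, 4919.8 and 86.0 CPM, and in other cells to 6547, 13352, 13314 and 62.9. It was high in the libraries with an intact gene and low in both kinds of DKO cell, the direction the DKO label calls for. A UMI of Ccl5 remained in 82.8% of cycling DKO cells with Cd8b1, at 139.9 CPM. In gated B cells, read for free RNA, Ccl5 had a UMI in 26.6, 36.7, 17.5 and 10.2%. The DKO B cells had a median depth of 6872 UMIs and the cycling Cd8b1 cells one of 17711, so the shares cannot be set side by side, and the source of the remnant was not tested. Mir146 has no row in the count tables, so the miR-146a-/- label could not be read from its own gene.

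Cycling cells were most frequent in treated WT. They made up 3.75% (3.39-4.14%) of kept cells in young WT, 7.74% (7.18-8.34%) in treated WT, 4.77% (4.31-5.26%) in miR-146a-/- and 5.26% (4.83-5.72%) in DKO. After thinning the shares were 3.95, 7.86, 4.44 and 5.11%. The share in treated WT was 2.06 (1.82-2.33) times that in young WT, the share in miR-146a-/- was 0.616 (0.544-0.697) times that in treated WT, and the share in DKO was 1.10 (0.969-1.26) times that in miR-146a-/-. In points of percent the differences were 3.99 (3.31-4.68), -2.98 (-3.72 to -2.23) and 0.491 (-0.160 to 1.13). The rise with treatment and the lower share in miR-146a-/- were larger than counting error, while the step from miR-146a-/- to DKO was not before thinning. The thinned ratios were 1.99 (1.75-2.26), 0.565 (0.495-0.644) and 1.15 (1.00-1.32). With a threshold scaled to the depth of each cell, DKO over miR-146a-/- was 0.934, and without the upper limit of 6000 genes 0.997, so the direction of that small step depended on the rule.

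Lineage was read from 5 genes: Cd8b1, a chain of the CD8 co-receptor of cytotoxic T cells; Cd4, the co-receptor of helper T cells, also made by plasmacytoid dendritic cells; Ncr1, the NKp46 receptor of NK cells and ILC1; Cd79a, a chain of the B cell receptor; and Csf1r, the receptor for the growth factor of monocytes, macrophages and some dendritic cells. A cell is named here by the gene it carried when it had a UMI of exactly 1 of the 5. In Cd8b1 cells, 65, 185, 106 and 145 of 1417, 2100, 2272 and 1998 were cycling, or 4.59, 8.81, 4.67 and 7.26% (4.86, 9.74, 4.68 and 7.30% thinned). Treated WT was the highest and DKO the next, with young WT and miR-146a-/- level with each other. The ratios were 1.92 (1.46-2.53) for treated over young WT, 0.530 (0.420-0.667) for miR-146a-/- over treated WT and 1.56 (1.22-1.98) for DKO over miR-146a-/-, so the 3 steps each exceeded counting error in these cells.

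NK cells and ILC1, the Ncr1 cells, rose most with treatment as a ratio before thinning, though not in points of percent, where Cd4 cells rose by 5.68, Cd8b1 cells by 4.22 and Ncr1 cells by 4.22. Their cycling share was 1.87, 6.09, 3.76 and 4.39% (36, 96, 39 and 70 of 1928, 1577, 1036 and 1594 cells), and 2.24, 5.70, 3.45 and 4.13% thinned. Treated WT was 3.26 (2.24-4.75) times young WT, and miR-146a-/- was 0.618 (0.430-0.8898) times treated WT. In Cd4 cells the share was 4.83, 10.5, 7.67 and 8.43% (61, 35, 53 and 44 of 1263, 333, 691 and 522), with the 3 treated libraries above young WT. The make-up of this class differed between libraries. A UMI of Zbtb16, a factor of NKT-like T cells, was in 521, 35, 27 and 38 of these Cd4 cells. Those with it cycled at 3.65, 11.4, 11.1 and 13.2% and those without at 5.66, 10.4, 7.53 and 8.06%, a gate chosen after values were seen. The Cd4 ratio of treated to young WT was 2.18 (1.46-3.24). With 2 UMIs of a lineage gene it fell below this interval, as given under processing. In Cd79a cells it was 2.75, 6.48, 2.77 and 2.80% (37, 48, 13 and 20 of 1344, 741, 469 and 714). Treated WT stood alone for Cd79a, with the other 3 libraries together near the young level. After thinning, the shares were 5.40, 9.40, 8.35 and 7.03% in Cd4 cells and 2.12, 6.31, 1.61 and 2.36% in Cd79a cells.

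Csf1r cells ran the other way before thinning. Of these, 47, 62, 61 and 113 of 422, 775, 1410 and 2485 were cycling, or 11.1, 8.00, 4.33 and 4.55%, which is highest in young WT and lowest in miR-146a-/-. Thinned, the shares were 3.11, 4.34, 1.46 and 2.58%, with treated WT highest, and the ratio of treated to young WT turned from 0.718 (0.501-1.03) to 1.40 (0.694-2.82). The direction in this lineage thus depended on thinning. Cycling cells without a UMI of the 5 genes were 64, 67, 38 and 60 of 2881, 1162, 830 and 1164 such cells, 2.22, 5.77, 4.58 and 5.15%.

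**Figure D1:**
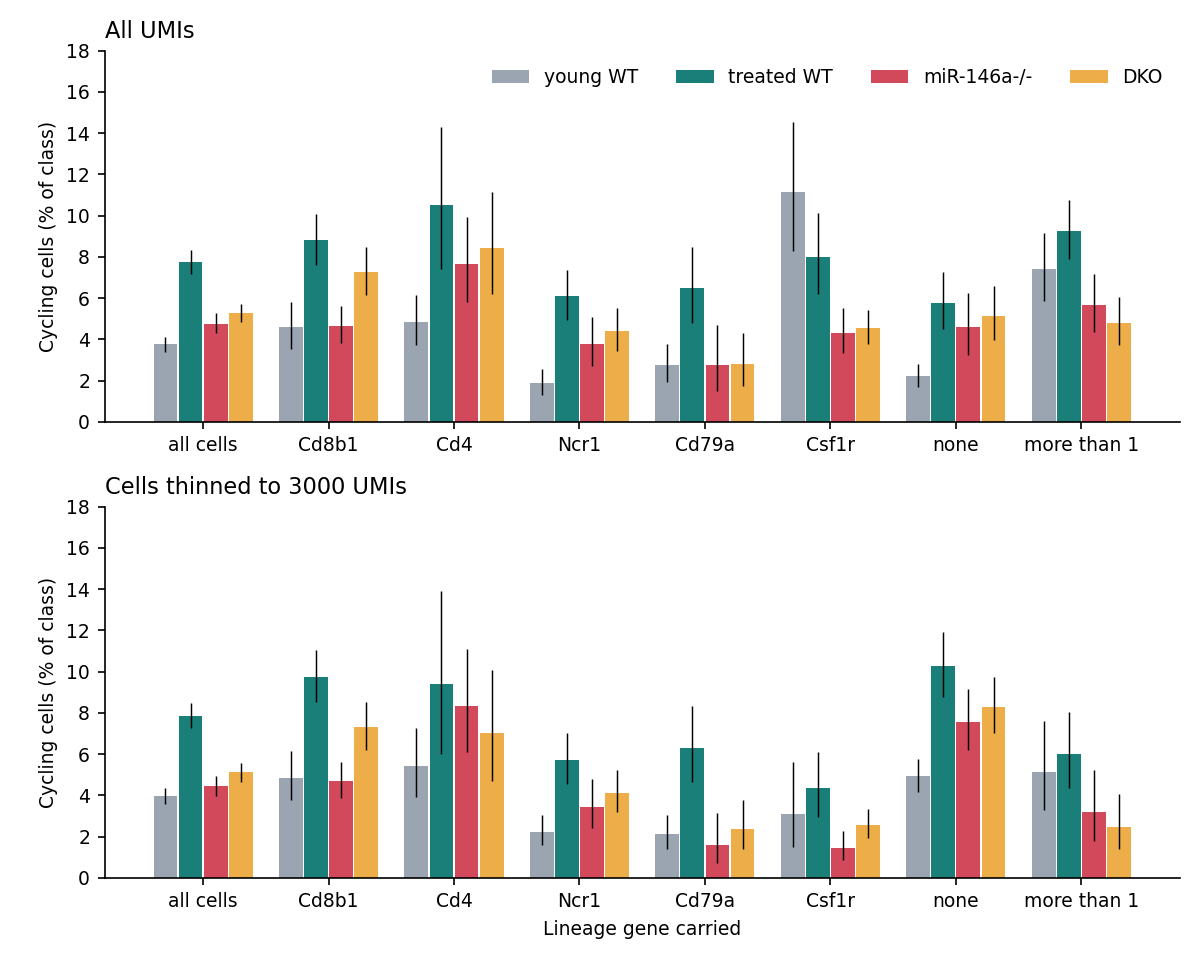
Percent of cells that were cycling (vertical axis) by lineage gene and library, from all UMIs (upper panel) and after thinning to 3000 UMIs per cell (lower panel); bars are 95% exact binomial intervals. Treated WT is highest for Cd8b1, Ncr1 and Cd79a in both panels, and Csf1r changes order between them, from 11.1% to 3.11% in young WT.

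The lineage mix of the cycling cells differed between libraries. Cd8b1 cells were 16.8, 28.7, 28.4 and 28.0% of cycling cells, against 13.8, 25.2, 29.0 and 20.3% of all kept cells. They were the largest single-gene lineage among cycling cells in every library, and their share was lower in young WT than in the treated libraries, where it hardly moved. Csf1r cells were 12.2, 9.61, 16.4 and 21.8% of cycling cells and 4.10, 9.30, 18.02 and 25.2% of kept cells, rising from treated WT to DKO before thinning. Thinned, they were 2.83, 5.28, 5.57 and 11.9% of cycling and 3.60, 9.56, 16.9 and 23.6% of kept cells, with young WT lowest among cycling cells and treated WT and miR-146a-/- near each other. Cd4 cells were 15.8, 5.43, 14.2 and 8.49% against 12.3, 3.998, 8.83 and 5.30%, low in treated WT and DKO.

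Ncr1 cells were 9.33, 14.9, 10.5 and 13.5% of cycling cells against 18.7, 18.9, 13.2 and 16.2% of kept cells, and Cd79a cells 9.59, 7.44, 3.49 and 3.86% against 13.1, 8.90, 5.99 and 7.25%. Both lineages took less of the cycling cells than of the whole in every library. Cells with a UMI of 0 of the 5 genes were 16.6, 10.4, 10.2 and 11.6% of cycling cells. The mix ratio of treated over young WT was 1.70 (1.32-2.19) for Cd8b1 and 0.343 (0.231-0.510) for Cd4. For miR-146a-/- over treated WT it was 2.62 (1.74-3.94) for Cd4 and 1.70 (1.22-2.37) for Csf1r, and for DKO over miR-146a-/- it was 0.598 (0.410-0.871) and 1.33 (1.01-1.77). Thinned, the Csf1r ratios were 1.06 (0.600-1.86) and 2.13 (1.28-3.56), so the first was within counting error at equal depth. The thinned Cd4 ratios were 3.55 (2.16-5.83) and 0.438 (0.277-0.694), and those of treated over young WT 1.95 (1.53-2.49) for Cd8b1 and 0.323 (0.196-0.532) for Cd4.

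Most of the rise with treatment lay in the rates within classes. The classes were the 5 lineages, cells with none of the genes and cells with more than 1. Cells with none were 28.0% of kept cells in young WT and 14.0% in treated WT, and cells with more than 1 were 10.0 and 19.7%. These mix cell types, and a change of type inside a class counts as a change of rate here. With the young WT cycling rates applied to the lineage mix of treated WT, 4.75% of cells would cycle, against 3.75% in young WT and 7.74% in treated WT. With the treated WT rates applied to the miR-146a-/- mix, 8.06% would cycle, against 4.77% measured in miR-146a-/-. With the miR-146a-/- rates applied to the DKO mix the value was 4.58%, against 5.26% in DKO. Exchanging the mix moved the share less than exchanging the rates in each of the 3 comparisons.

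**Figure D2:**
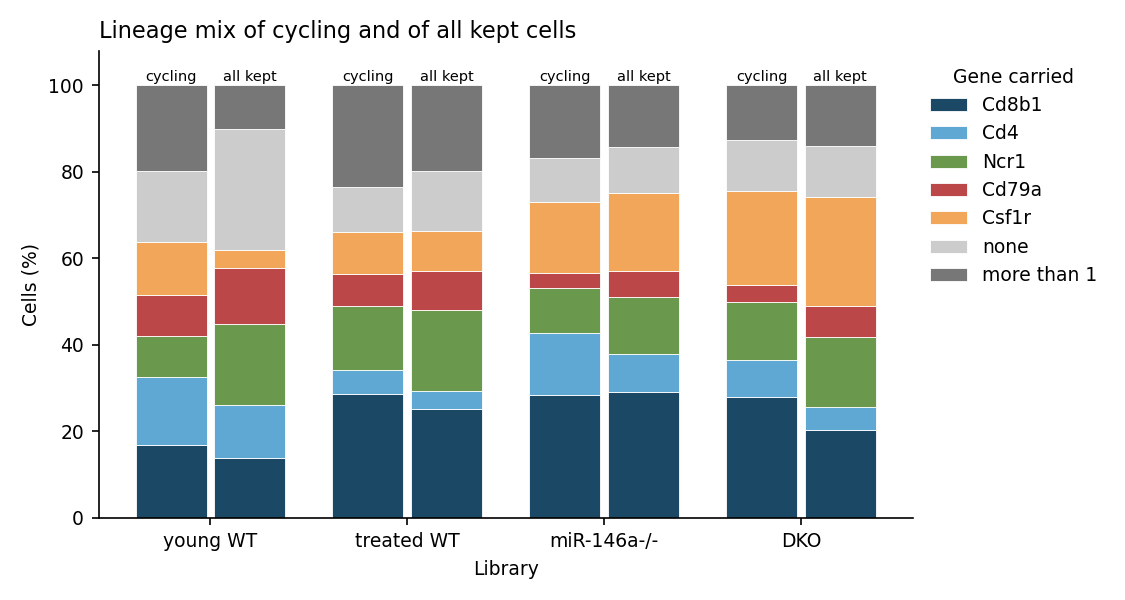
Percent of cycling cells and of all kept cells (vertical axis) that carried each lineage gene alone, more than 1 of the 5, or none, as stacked bars for each library. Cd8b1 takes 16.8, 28.7, 28.4 and 28.0% of cycling cells in the 4 libraries, and Csf1r grows from treated WT to DKO in these shares, which are from all UMIs.

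Many cycling cells carried more than 1 of the 5 genes. They were 19.7, 23.6, 16.9 and 12.7% of cycling cells and 9.62, 19.4, 14.1 and 14.0% of other cells before thinning, and 5.85, 9.26, 5.68 and 2.92% and 4.99, 9.13, 6.47 and 6.89% after it. Those thinned shares are of cells called cycling from all UMIs. With the thinned rule they were 6.52, 6.98, 4.64 and 3.24% of cycling cells. Cd8b1 with Csf1r was found in 6, 78, 24 and 28 cycling cells, most in treated WT. No doublet caller was run, and the upper limit of 6000 genes is the only step that removes cells caught together. Cells carrying more than 1 gene cycled at 7.39, 9.26, 5.65 and 4.81% (76, 152, 63 and 66 of 1028, 1641, 1116 and 1373 cells).

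The background of free RNA was read in cells that should lack a gene. In B cells gated by Cd79b and Ms4a1 without Cd3e, Cd8b1 had a UMI in 1.47, 3.47, 1.996 and 1.88%, Cd4 in 1.47, 0.906, 0.443 and 0.722%, Ncr1 in 4.07, 3.17, 1.996 and 4.18% and Csf1r in 0.867, 3.47, 3.55 and 6.06%, at median depths of 5697, 6872, 7145 and 6872 UMIs. In T cells, Cd79a had a UMI in 4.90, 4.83, 2.60 and 2.35% and Csf1r in 0.914, 2.25, 3.23 and 6.88%, at medians of 7240, 7337, 6900.5 and 6510. Csf1r background was higher in miR-146a-/- and DKO than in young WT, as were Csf1r cells themselves. The thinned shares that follow are of cells called cycling or other from all UMIs. Thinned, Cd8b1 was in 22.9, 41.1, 33.2 and 31.4% of cycling and 17.7, 35.8, 36.1 and 25.9% of other cells, Ncr1 in 12.2, 15.9, 10.3 and 14.2% and 22.7, 22.0, 14.9 and 18.6%, and Csf1r in 5.32, 9.89, 11.6 and 16.4% and 4.77, 15.5, 21.6 and 29.1%. Cd79a was in 11.97, 9.26, 5.14 and 3.90% and 16.8, 12.2, 8.32 and 9.71%, and Cd4 in 13.0, 5.34, 13.0 and 5.07% and 10.3, 4.97, 8.71 and 5.83%.

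Division genes were higher in cycling cells than in other cells, which describes the choice of cells and is read no further. Among 3460 genes tested in all cells (50 or more CPM and 20 or more UMIs on either side in every library), 245 were more than 2-fold higher in cycling cells in every library (7.08% of genes tested) and 19 more than 2-fold lower (0.549%). S phase genes were higher in 23 of 23 tested, with a median log2 ratio of 2.96, and G2 and M phase genes in 32 of 32, with a median of 6.23, beside a median of 0.01 over all genes. Histone genes were higher in 8 of 8 (median 4.82). Of 8 tested cell-cycle inhibitors, Cdkn2c and Cdkn2d, inhibitors of CDK4 and CDK6, were higher, and the list's median was -0.33.

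Of the lists of cell state, 1 had a gene past 2-fold in every library. The median log2 ratio was -0.66 for 6 naive and homing genes, of which Il7r, the interleukin 7 receptor, was lower. It was -0.32 for 6 checkpoint genes, -0.71 for 10 cytotoxic genes, -0.40 for 6 activation genes and -0.86 for 4 residency genes. It was 0.45 for 9 glycolysis genes, -0.54 for 8 immediate-early genes and -0.37 for 5 interferon-stimulated genes, with 0 past 2-fold in each of these 7 lists. Libraries differed in this. In young WT alone the median was -1.29 for cytotoxic, -1.18 for naive and -1.04 for residency genes, further from 0 than in the other libraries.

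Named genes were ordered by their weakest library, that is by the smallest of the 4 ratios for rises and by the ratio nearest 0 for falls, so a gene further down can be higher in single libraries or on average. By this order the rises began with Mxd3, a partner of Max active in S phase, with log2 ratios of 7.88, 8.00, 8.53 and 8.35, then Ccna2 (cyclin A), Hmmr, Pbk, Cenpf, Esco2, Neil3, Shcbp1, Cdca3 and Nuf2. The falls began with Ctsl, a lysosomal protease, at -2.68, -2.26, -2.35 and -2.21, then Tcp11l2, Plaur, Cebpb, Bank1, Il7r, Gngt2, Pltp, Lst1 and Bcl2. Ctsl, Plaur, Cebpb, Pltp and Lst1 are genes of myeloid cells.

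Within Cd8b1 cells, 281 of 3356 genes were higher in cycling cells in every library (8.37%) and 21 lower (0.626%). All 27 S phase genes tested were higher (median log2 3.12), as were all 31 G2 and M phase genes (5.91) and 8 of 8 histones (4.73), beside 0.07 over all genes. Of 8 inhibitors Cdkn2c was higher, and Btg1 and Btg2, which hold T cells at rest, were lower (median -0.30). Tpi1 was the 1 higher gene of 10 in glycolysis (median 0.78), Junb the 1 lower of 7 immediate-early genes (-0.96) and Il7r the 1 lower of 6 naive genes (-0.75). Checkpoint, cytotoxic, activation, residency and interferon lists had 0 past 2-fold, with medians of -0.37, -0.48, -0.18, -0.99 and -0.49.

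In Cd8b1 cells the rises, in the same order, began with Ccna2, with log2 ratios of 8.59, 7.72, 8.71 and 8.46, followed by Esco2, Ska1, Shcbp1, Hmmr, Mxd3, Ccnb2, Neil3, Cdca3 and Cenpf. The falls began with Tcp11l2, at -3.16, -2.48, -2.49 and -2.95, followed by Tyrobp, Phf1, Pim2, Fcer1g, Bcl2, Mxd4, Neurl3, Hbp1 and Il7r. Il7r was at -2.40, -2.12, -1.17 and -1.71, so resting cells had more of the receptor for the survival cytokine interleukin 7. Mxd4 and Hbp1 repress growth genes, and Bcl2 blocks cell death.

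In the other lineages the counts past 2-fold in every library were as follows. In Cd4 cells 256 of 3534 genes were higher (7.24%) and 66 lower (1.87%), and the first falls in that order were Siglech, Cox6a2, Klk1, Ly6d, Ctsl, Tcf4, Atp1b1, Rnase6, Ccr9 and Tsc22d1. Siglech, Klk1, Ly6d, Tcf4 and Ccr9 are genes of plasmacytoid dendritic cells, and their RNA was low in cycling Cd4 cells. In Ncr1 cells 276 of 3624 were higher (7.62%) and 43 lower (1.19%), and the falls began with Kdm5b, a histone demethylase, at -3.11, -2.77, -3.37 and -3.47, then Tcp11l2, Cd200r2, Phf1, Asb2, Klk8, Jaml, Cd200r1, Ppm1j and Hopx. Upward the first genes were Ccna2, Ccnb2, Shcbp1, Hmmr, Plk1, Neil3, Cenpf, Cdca3, Pclaf and Cdkn3 in Cd4 cells. In Ncr1 cells they were Ccna2, Pbk, Kif2c, Ccnb2, Cenpf, Mxd3, Kif18b, Hmmr, Neil3 and Pclaf.

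In Cd79a cells 122 of 2933 genes were higher (4.16%) and 100 lower (3.41%). The falls began with Satb1, a chromatin organiser, at -2.77, -2.94, -3.40 and -2.78, followed by Zfp318, needed for IgD, and by Plaur, Cd55, Phf1, Pgap1, Cnr2, Cnn3, Arhgef3 and Mylip, and the rises with Ccna2, Pclaf, Cdk1, Cdca3, Tpx2, Cenpf, Rrm2, Clspn, Spc24 and Ccnb2. In Csf1r cells 214 of 3235 were higher (6.62%) and 102 lower (3.15%). The first falls were Ace, Clec4e, Pla2g7, Hmox1, Ldlrad3, Eno3, Cd300ld, Ms4a4a, Arhgef10l and Zfyve9, of which Ace and Clec4e belong to monocytes, and the first rises Hmmr, Esco2, Ccna2, Kif11, Pclaf, Nusap1, Shcbp1, Plk1, Cenpf and Spc24. These monocyte genes were thus lower in cycling than in resting Csf1r cells of each library.

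The balance of S phase to G2 and M phase RNA was steady over libraries. The summed S list over the summed G2 and M list gave 0.844, 0.887, 0.896 and 0.866 in all cycling cells. In Cd8b1 cells it was 1.26, 0.958, 1.11 and 0.988, highest in young WT, and in Csf1r cells 0.773, 0.625, 0.672 and 0.582, also highest in young WT. In Ncr1, Cd4 and Cd79a cells it was 0.824, 0.914, 0.690 and 0.893, then 0.911, 1.03, 0.920 and 0.976, then 1.00, 0.871, 1.23 and 0.722.

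Pttg1, which encodes securin, the inhibitor that holds separase back until anaphase, set miR-146a-/- and DKO apart from both WT libraries. In cycling cells it summed to 64.998, 73.7, 236 and 236 CPM, with Poisson intervals of 59.4-71.0, 68.9-78.7, 225-247 and 226-245. In other cells it was 78.0, 84.2, 56.3 and 53.6. The WT libraries carried no more Pttg1 in cycling cells than in the rest, and the libraries without miR-146a carried several times more. The ratio of cycling to other cells was 0.833 (0.759-0.914) in young WT, 0.876 (0.815-0.940) in treated WT, 4.20 (3.97-4.44) in miR-146a-/- and 4.40 (4.19-4.62) in DKO.

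In each lineage cycling cells of miR-146a-/- and DKO held more Pttg1 than those of both WT libraries, by least in Cd79a cells of miR-146a-/-. In cycling Cd8b1 cells Pttg1 was at 88.3, 108, 314 and 331 CPM, in Cd4 cells at 78.0, 83.9, 289.6 and 259.5 and in Ncr1 cells at 51.2, 35.2, 242 and 215. The step lay between the WT pair and the miR-146a-/- pair in these 3. In Cd79a cells it was 41.2, 43.1, 77.1 and 135 and in Csf1r cells 39.3, 47.1, 161 and 222, with a smaller step in B cells, where the interval of miR-146a-/-, 49.9-114, overlaps that of treated WT, 31.4-57.7. Cells with 0 of the 5 genes were at 61.5, 57.4, 225 and 221, and those with more than 1 at 79.4, 87.9, 209.8 and 137. Against other cells of the same lineage the ratio was 0.992, 0.826, 3.22 and 2.83 for Cd8b1, 0.804, 1.02, 3.45 and 3.51 for Cd4, 0.702, 0.499, 6.44 and 4.92 for Ncr1, 0.730, 0.835, 1.79 and 3.93 for Cd79a and 0.720, 0.915, 5.58 and 7.08 for Csf1r.

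Pttg1 lies on chromosome 11, 45.8 kb from Mir146, the gene removed in both libraries. Its neighbours were therefore read as well, chosen after the values were seen. The genes within 1000 kb that had at least 10 CPM were Pttg1 and 3 others. In cycling cells of miR-146a-/- over treated WT, Slu7, a splicing factor, had a log2 ratio of -0.15, Pwwp2a -0.16 and Ttc1 -0.04, beside 1.68 for Pttg1 (DKO over treated WT 1.68). The cause of the difference was not tested.

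**Figure D3:**
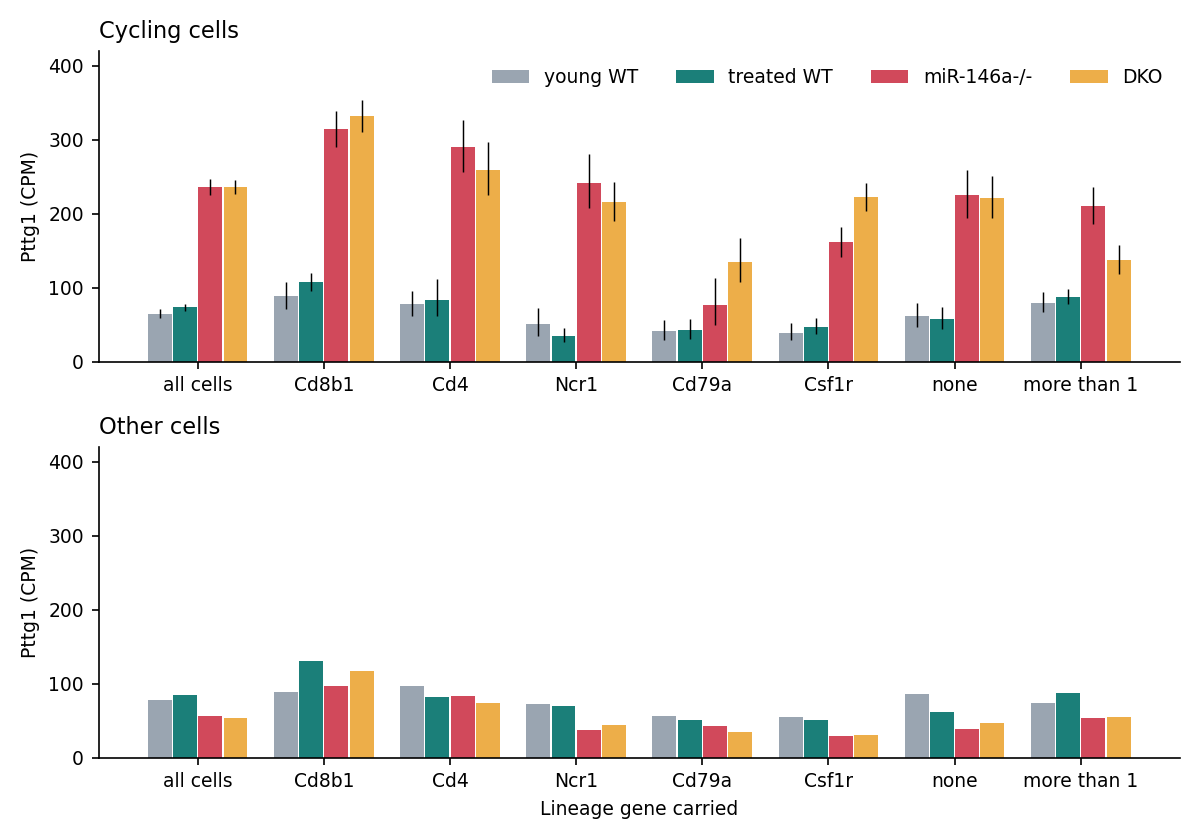
Pttg1 in CPM (vertical axis) by lineage gene and library, in cycling cells with 95% Poisson intervals (upper panel) and in other cells (lower panel). Cycling miR-146a-/- and DKO cells stand above both WT libraries in each lineage, for example 51.2, 35.2, 242 and 215 in Ncr1 cells, and other cells do not.

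Cycling Cd8b1 cells of treated WT carried more RNA of most checkpoint genes and of part of the cytotoxic genes than those of young WT. Among 3723 genes tested between the 2 libraries, 91 were more than 2-fold higher (2.44%) and 48 lower (1.29%). Of 8 checkpoint genes 7 were higher and 0 lower, with a median log2 ratio of 2.29 beside 0.02 over all genes.

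Pdcd1, the PD-1 receptor, was at 33.8, 308, 193 and 228 CPM in cycling Cd8b1 cells of the 4 libraries. Tigit, which binds CD155, was at 77.1, 445, 191 and 239, and Lag3, which binds MHC class II, at 42.3, 235, 117 and 76.3. Each was lowest in young WT and highest in treated WT. Havcr2 (TIM-3) was at 21.6, 131, 74.7 and 91.1, Ctla4, which competes for CD80 and CD86, at 104, 375, 115 and 137, and Entpd1, which breaks down extracellular ATP, at 25.4, 110.2, 67.9 and 77.7. Tox, the factor that fixes the exhausted state, was at 197, 531, 425 and 511, and only Cd160 of the list was not raised in treated WT, at 114, 77.1, 131 and 99.3.

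Of 12 cytotoxic genes and cytokines, 6 were higher in treated than in young WT and 2 lower (median 1.17). Gzmb was at 348, 1287, 678 and 782, Gzmk at 419, 1111, 692 and 828 and Gzma at 251, 756, 592 and 979, all serine proteases of cytotoxic granules. Their young WT level was the lowest of the 4. The chemokine Ccl4 was at 166, 1677, 697 and 516 and Ccl3 at 31.0, 508, 307 and 236, with treated WT highest, and Ccl5 at 5293, 13995, 8545 and 139.9. Gzmm, at 81.8, 39.1, 67.4 and 34.2, and Tnf, at 56.4, 22.5, 25.9 and 14.9, were highest in young WT. Interferon gamma (Ifng) was at 129.7, 117, 129 and 57.3 and perforin (Prf1) at 63.9, 122, 130.4 and 119, with DKO low for the first and young WT low for the second.

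Of 8 naive and homing genes, 4 were lower in treated WT and 0 higher (median -0.98). Tcf7, the factor of naive and stem-like T cells, was at 233, 65.2, 80.6 and 75.9, Lef1 at 131, 45.0, 98.7 and 71.4 and Ccr7, a homing receptor, at 179, 91.3, 42.5 and 65.1. Young WT was highest for each. Of 8 activation genes 3 were higher (median 0.18), and all 3 residency genes tested were (median 1.32). Cxcr6, a receptor that keeps T cells in liver, was at 116, 289.9, 157 and 198, Rgs1 at 392, 824, 246 and 368 and Bhlhe40 at 81.8, 239, 106 and 105. Tnfrsf9 (4-1BB) was at 38.5, 96.6, 117 and 69.9 and Tnfrsf18 (GITR) at 54.5, 156, 79.1 and 68.1.

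Division genes themselves hardly differed between the cycling cells of the 2 libraries. The S list had 0 of 30 past 2-fold (median -0.20), the G2 and M list 1 of 34 (Ckap2, at 29.1, 63.5, 67.9 and 54.7; median 0.20), and the histone list 1 of 8, lower (Hist1h2ap, at 439, 186, 496 and 390.2; median -0.15). Of 10 inhibitors 2 were higher (median 0.50): Cdkn1a (p21), at 33.8, 118, 32.2 and 35.0, and Cdkn2a, at 17.9, 67.8, 55.2 and 52.8. Glycolysis had 0 of 10 past 2-fold (median -0.03), interferon-stimulated genes 0 of 5 (-0.06) and immediate-early genes 1 of 7, the lower Jun (0.14).

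The largest rises were of Spp1 (osteopontin), with 483 UMIs in 41 cells of treated WT and 0 in young WT, at least 56.7-fold higher against a floor of 3 UMIs. Gcg, which encodes glucagon, had 256 UMIs in 7 cells against 0, at least 30.1-fold higher, with 130 of them in 1 cell. Penk had 157 UMIs in 23 cells against 0, at least 18.4-fold higher. Coch had 442 UMIs in 93 cells against 1, a ratio of 156 (27.8-6162), and Tnfrsf4 (OX40) 316 UMIs in 69 cells against 1, a ratio of 111 (19.8-4409). Spp1 and Gcg were high in resting Cd8b1 cells of treated WT also, at 167 and 79.3 CPM. The largest falls were of Dapl1 (log2 -3.02), Id3 (-2.29), Nsg2 (-2.18), Plac8 (-1.91) and Tcf7 (-1.83). Dapl1 was carried by 7 cells of young WT and 8 of treated WT.

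Most of the rises were present in resting Cd8b1 cells too. Of the 91 higher genes, 58 were also more than 2-fold higher in other Cd8b1 cells and 89 lay on the same side (median log2 1.504 in cycling, 1.56 in other cells). Of the 48 lower genes, 13 were also past 2-fold and 44 on the same side (-1.30 and -0.84). The minimum level was met in the other cells by 78 of the 91 and 35 of the 48. The share of all genes past 2-fold between the other cells was not read. In 1 of the higher and 2 of the lower genes, 1 cell held most of the UMIs. The rises were thus found in Cd8b1 cells of the library, cycling or not.

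**Figure D4:**
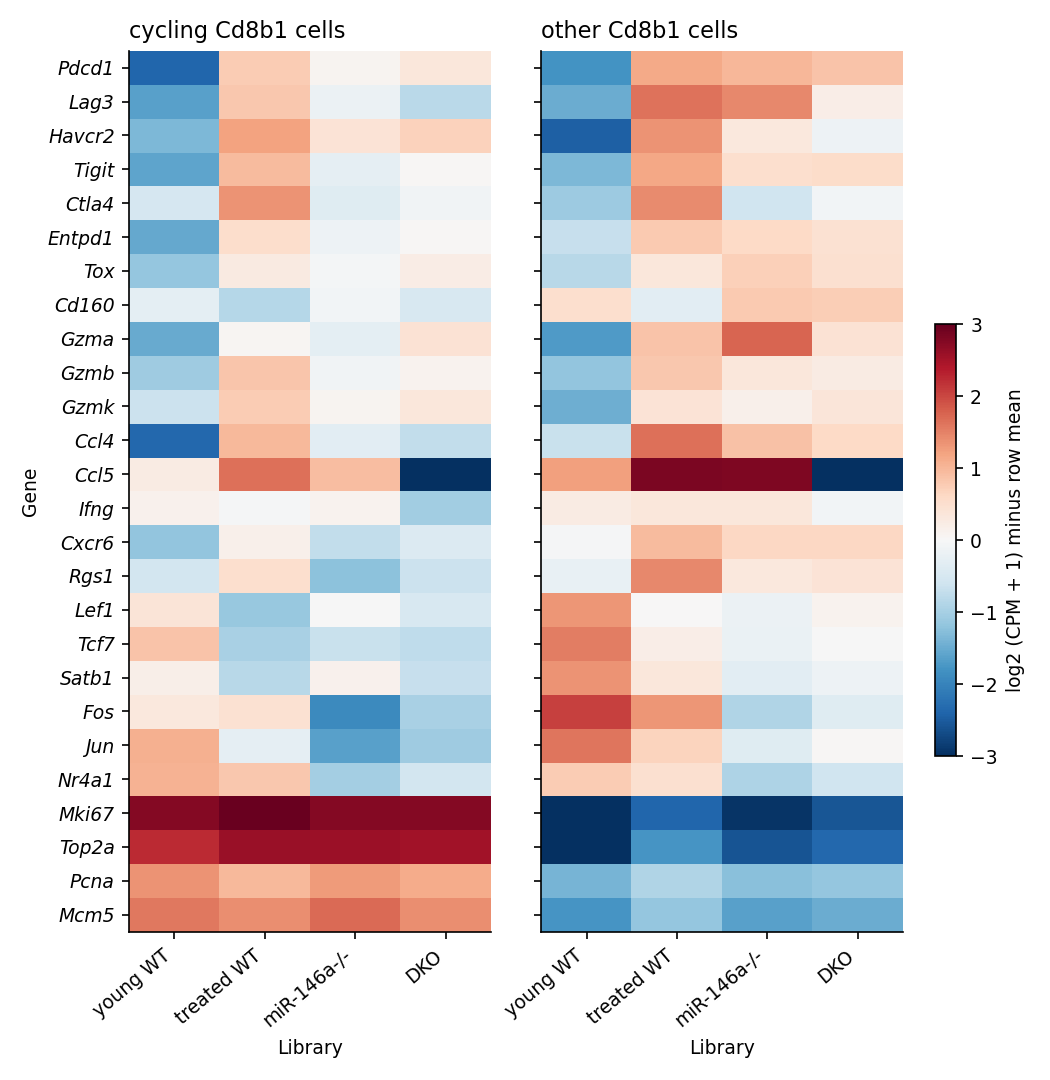
Log2 of CPM plus 1, minus each gene's mean over the 8 columns, for 26 genes in cycling (left) and other (right) Cd8b1 cells of the 4 libraries; colours stop at 3 above and below the mean. Pdcd1, Tigit and Lag3 are low in young WT on both sides, and Ccl5 is low in DKO on both sides, at 139.9 CPM in cycling cells.

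In cycling Cd8b1 cells of miR-146a-/-, most immediate-early genes tested and part of the checkpoint list were lower than in treated WT, and fewer genes were higher than lower. Among 3653 genes, 19 were more than 2-fold higher (0.52%) and 69 lower (1.89%). Fos, Jun and Nr4a1, fast-response factors, were at 174, 191, 36.1 and 70.7, at 457, 180.4, 70.3 and 103 and at 219, 185, 51.3 and 71.0. All were lower in miR-146a-/- than in treated WT, with DKO between these 2 libraries. Dusp1, a phosphatase that shuts MAP kinases off, was at 244, 413, 114 and 122 and Junb at 964, 1068, 480.1 and 578. Of 7 immediate-early genes 5 were lower and 0 higher, with a median log2 ratio of -1.36 beside -0.03 over all genes.

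Of 8 checkpoint genes 3 were lower in miR-146a-/- and 0 higher (median -0.75), namely Ctla4, Lag3 and Tigit. Of 3 residency genes 2 were lower (median -1.18), of 8 activation genes 2, Tnfrsf4 and Icos, at 97.7, 120.1, 50.3 and 55.4 (-0.42), and of 11 cytotoxic genes 1, Ccl4 (-0.71). The naive list had Lef1 higher and Ccr7 lower among 8 (0.57). Of 10 inhibitors Cdkn1a was lower (-0.27). The S list (29 genes, 0.23), the G2 and M list (34, 0.01), glycolysis (10, 0.31) and interferon-stimulated genes (5, -0.11) had 0 past 2-fold, and Hist1h2ap was the 1 higher histone of 8 (0.41).

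Of the 5 largest rises, 4 were haemoglobin genes held by single cells. Hbb-bs had 2251 of its 2252 UMIs in 1 cell, a ratio of 3323 (596-131320), Hbb-bt 388 of 389, at least 191-fold higher, Hba-a2 all 520 in 1 cell and Hba-a1 all 685 in 1 cell. The next was Pttg1, at a ratio of 2.92 (2.55-3.35) and in 88 of 106 cells. The largest falls were Gcg, with 0 UMIs against 256, then H2-Aa (log2 -4.40), Apoe (-4.39), 5830405F06Rik (-4.22) and H2-Eb1 (-3.97). H2-Aa and H2-Eb1 are MHC class II genes of antigen-presenting cells, and Apoe a macrophage gene, and how far RNA of such cells enters these values was not tested.

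In other Cd8b1 cells 3 of the 19 higher genes and 37 of the 69 lower genes were past 2-fold as well, and 10 and 66 lay on the same side. Only 10 of the 19 met the minimum level in those cells, against 64 of the 69. The share of all genes past 2-fold between the other cells was not read. The median log2 ratio of the lower genes was -1.40 in cycling and -1.09 in other cells, and that of the higher genes 1.63 and 0.19. In 4 of the higher and 2 of the lower genes, 1 cell held most of the UMIs. Most of the falls thus lay on the same side in resting cells. For the rises the values do not decide, since only 10 of the 19 met the minimum level there.

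Between miR-146a-/- and DKO fewer genes were past 2-fold in cycling Cd8b1 cells than in the 2 comparisons above. Among 3558 genes, 27 were more than 2-fold higher in DKO (0.759%) and 8 lower (0.225%), beside a median log2 ratio of 0.02 over all genes. The count depended on the minimum level. With 10 CPM in place of 50, 237 of 8390 genes were past 2-fold (2.82%), against 300 of 8358 (3.59%) for miR-146a-/- over treated WT and 433 of 8095 (5.35%) for treated over young WT. Ccl5 fell most (log2 -5.93), followed by Gm19585 (-1.48), Ifng (-1.17), Ly6a, a marker of activation by interferon (-1.15), and Klre1, an NK receptor (-1.15). The largest rises were Ifitm1, with 286 UMIs in 8 cells against 0 (at least 72.6-fold), and H2-Ab1 (5.94), H2-Aa (5.19), H2-Eb1 (5.14) and Cd74 (4.81), the invariant chain of MHC class II. For Cd74, 960 of 1818 UMIs lay in 1 cell, for H2-Aa 320 of 597, and for H2-Eb1 201 of 391. For each of these 3 genes 1 cell thus held most of the UMIs, and whether it was the same cell was not read.

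Only the cytotoxic list had genes past 2-fold between miR-146a-/- and DKO, Ifng and Ccl5 among 11 (median -0.13). The medians were -0.14 for S phase (29 tested), 0.02 for G2 and M phase (35), -0.06 for histones (8) and -0.05 for inhibitors (9). They were -0.27 for naive genes (8), 0.25 for checkpoint genes (8), 0.03 for activation (7) and 0.33 for residency (3). For glycolysis (10), immediate-early (7) and interferon-stimulated genes (5) they were -0.28, 0.27 and -0.28.

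Gates within Cd8b1 cells, chosen after values were seen, split the cycling share. Cells with a Pdcd1 UMI cycled at 6.96, 10.7, 4.77 and 8.43% and those without at 3.91, 5.48, 4.46 and 5.16%, or 5.24, 10.9, 3.41 and 6.44% and 4.80, 8.51, 5.94 and 8.10% after thinning. The Pdcd1 side was higher in every library before thinning but lower in miR-146a-/- and DKO after it. Cells with Gzmk cycled at 6.75, 10.4, 4.31 and 7.36% and those without at 3.22, 3.85, 6.05 and 6.78% (thinned 8.05, 11.3, 4.32 and 7.42% and 3.32, 6.08, 5.53 and 6.92%), with miR-146a-/- the 1 library where the Gzmk side was the lower.

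Csf1r cells with Flt3, the receptor of dendritic cell precursors, cycled at a higher rate than those without. This gate was chosen after values were seen. With a Flt3 UMI, 44 of 179, 51 of 174, 39 of 209 and 69 of 354 cells cycled, or 24.6, 29.3, 18.7 and 19.5%. Without Flt3 it was 1.23, 1.83, 1.83 and 2.06%. Thinned, the shares were 14.3, 20, 8.89 and 11.5% and 1.43, 3.41, 1.18 and 2.20%. The rate on the Flt3 side was the higher in every library under both settings. Thinned, that side held 6, 8, 4 and 10 cycling cells and the other side 4, 23, 14 and 45. After thinning, most cycling Csf1r cells thus lay outside the gate, except in young WT. Cells with Flt3 had median depths of 20678, 19558, 20875 and 20079 UMIs, against 9276, 10519, 9783 and 8264 without. Cells with Xcr1 or Clec9a, receptors of cross-presenting type 1 dendritic cells (cDC1), cycled in 54 of 554, 63 of 419, 28 of 316 and 47 of 407 cells, or 9.75, 15.0, 8.86 and 11.5% (8.55, 13.3, 5.88 and 8.73% thinned), again highest in treated WT.

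The marker lists of cycling Csf1r cells changed between libraries. Genes shared by dendritic cells summed to 46946, 45323, 35751 and 34532 CPM in cycling Csf1r cells and 37193, 30194, 18268 and 19581 in other ones. Monocyte genes summed to 982, 858, 6489.5 and 4958 against 6687, 8657, 11050 and 10411. The summed level in cycling cells was below that in other cells in each library, by more in young and treated WT. The share of cells differed less. Thinned, 76.5, 81.2, 87.1 and 76.7% of cycling and 94.1, 97.2, 94.7 and 84.1% of other Csf1r cells held 2 or more monocyte genes. The 17, 32, 31 and 73 cycling cells of these shares were called from all UMIs and carried Csf1r alone after thinning. The cDC1 list summed to 1769, 1136, 648 and 392 against 1170.2, 396, 264 and 255, falling from young WT to DKO among cycling cells, and the neutrophil list to 0, 0, 15002 and 19185 in cycling cells.

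Cycling Csf1r cells of miR-146a-/- differed from those of treated WT by granule genes and by lower immediate-early genes. Among 3616 genes, 128 were higher (3.54%) and 75 lower (2.07%). S100a9 and S100a8, calcium-binding proteins of neutrophils, had 8946 UMIs in 10 cells and 7507 in 13 cells against 0, at least 2989.7-fold and 2509-fold higher. Camp and Ngp, granule proteins, had 3240 and 3049 UMIs, each in 4 cells, at least 1083-fold and 1019-fold, and Lcn2 974 UMIs in 13 cells, at least 326-fold. A few cells therefore set these rises. The falls were Cxcl2 (log2 -6.59, with 142 of 144 UMIs in 1 cell), Zfand2a (-3.22), Rsad2 (-3.19, 115 of 132 in 1 cell), Fosb (-2.92) and Ccl5 (-2.90).

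Of 9 immediate-early genes tested in cycling Csf1r cells, 7 were lower in miR-146a-/- and 0 higher (median -1.25, beside 0.00 over all genes). All 3 tested cytotoxic genes and chemokines, Ccl3, Ccl4 and Ccl5, were lower (-1.88), as were 3 of 8 interferon-stimulated genes, Ifit3, Isg15 and Rsad2 (-0.41). T cell genes were also found less often. Thinned, 14 of 32 cycling Csf1r cells (43.75%) of treated WT held 2 or more of them, against 5 of 31 (16.1%) of miR-146a-/-. NK and ILC1 genes were so held by 3 of 32 and 0 of 31. How far RNA of such cells enters these falls was not tested. The S list had 0 of 22 (-0.11), the G2 and M list 0 of 32 (-0.21) and glycolysis 0 of 9 (0.41) past 2-fold. Hist1h2ap was higher, and Btg2, Cd69 and Rgs1 lower. Of the 128 higher genes 23, and of the 75 lower genes 39, were past 2-fold in other Csf1r cells too. The minimum level was met in those cells by 116 of the 128 and 57 of the 75. The share of all genes past 2-fold between them was not read.

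DKO cycling Csf1r cells differed from miR-146a-/- in fewer genes, 32 of 3551 higher (0.901%) and 14 lower (0.394%). The largest rises were Negr1 (log2 4.14, in 22 against 2 cells), Fcgr4, an Fc receptor of patrolling monocytes (3.05), the lipid-sensing receptors Pparg (2.46) and Nr1h3 (2.32), and Gm42031 (2.41). Large falls were of Ccl22 (-2.91, in 2 cells of DKO and 4 of miR-146a-/-), Il4i1 (-1.67), Prtn3 (-1.66) and Wfdc17 (-1.62). Of the lists, Cenpf was the 1 higher G2 and M gene of 33 and Rgs1 rose, while Ccl4 fell.

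Mef2b and Fas, expressed in germinal centre B cells, summed to more in cycling than in other Cd79a cells of every library, while Bcl6 differed less. The 3 genes were chosen after values were seen. Mef2b, a germinal centre factor, had a UMI in 26 of 37, 34 of 48, 4 of 13 and 12 of 20 cycling Cd79a cells, and summed to 419, 483, 46.2 and 111 CPM against 18.2, 30.6, 5.39 and 26.2 in other Cd79a cells. Young WT and treated WT were high, and miR-146a-/- and DKO lower, on 13 and 20 cells, and in miR-146a-/- 12 of the 15 UMIs lay in 1 cell. Thinned, Mef2b was found in 54.3, 57.4, 7.69 and 26.3% of cycling and 2.93, 4.44, 1.57 and 3.63% of other cells. Fas, a death receptor, was at 128, 148, 55.5 and 104 against 18.6, 32.1, 39.8 and 26.3, and thinned in 28.6, 42.6, 7.69 and 21.1% of cycling and 2.77, 5.55, 7.85 and 6.20% of other cells, level in miR-146a-/-. Bcl6, the master factor of that state, was at 91.3, 77.6, 37.0 and 26.1 against 65.9, 57.3, 34.4 and 37.0, with DKO lower in cycling cells, and thinned it was found in 20, 17.0, 7.69 and 5.26% of cycling and 16.4, 14.9, 8.97 and 9.68% of other cells.

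Mzb1 and Xbp1, genes of antibody secretion, summed to more in cycling than in other Cd79a cells, and Jchain was carried by a larger share of the cycling cells. Mzb1, an endoplasmic reticulum helper, was at 2091, 960.3, 1008 and 2606 against 516, 704, 675 and 924, and Xbp1, the secretion factor, at 578, 269, 339 and 964 against 189, 194, 164 and 268. In miR-146a-/- 84 of the 110 Xbp1 UMIs of cycling cells lay in 1 cell. Jchain, the joining chain of IgM and IgA, had a UMI in 23 of 37, 28 of 48, 4 of 13 and 10 of 20 cycling and 72 of 1307, 30 of 693, 13 of 456 and 69 of 694 other Cd79a cells, and thinned in 57.1, 44.7, 7.69 and 42.1% and 3.83, 3.33, 2.02 and 7.87%, higher in cycling cells of every library. In miR-146a-/- the thinned share rests on 1 of 13 cells. The summed level of Jchain was 3180.5, 2243, 21.6 and 11653 against 3924, 1993, 1739.8 and 8565, lower in cycling cells of young WT and miR-146a-/- and higher in those of treated WT and DKO. Up to 1420, 1012, 3 and 4198 of its UMIs lay in 1 cycling cell, so the summed level leans on single cells. Ighd, of resting B cells, was lower in cycling cells, at 35.6, 29.7, 46.2 and 26.1 against 245, 222, 299 and 258. Ms4a1 (CD20) was at 879, 839.7, 845 and 458. Thinned, 59.5, 56.0, 30.8 and 52.6% of cycling and 12.8, 14.4, 14.0 and 15.4% of other Cd79a cells held 2 or more plasma cell genes.

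Among Ncr1 cells, those with Eomes, the factor of conventional NK cells, cycled at 3.01, 9.21, 6.00 and 8.20% and those without at 1.00, 4.01, 2.05 and 1.63% (thinned 2.94, 6.58, 6.36 and 7.33% and 1.91, 5.37, 2.28 and 2.95%), with the Eomes side higher in every library. Thinned, the intervals of the 2 Eomes sides overlapped in young WT (1.72-4.67% and 1.21-2.85%) and treated WT (4.34-9.50% and 4.09-6.90%). They were apart in miR-146a-/- and DKO. Among Cd4 cells, those with Foxp3, the factor of regulatory T cells, cycled in 12 of 70, 7 of 32, 19 of 171 and 12 of 158 cells, or 17.1, 21.9, 11.1 and 7.59%, and those without at 4.11, 9.30, 6.54 and 8.79%. The Foxp3 side was the higher in young WT, treated WT and miR-146a-/-, and the lower in DKO. Thinned, the shares were 25.0, 12.5, 8.91 and 3.30% and 4.54, 9.17, 8.21 and 8.19%, with 8, 2, 9 and 3 cycling cells on the Foxp3 side. The thinned share of treated WT there rests on 2 cells, with an interval of 1.55-38.3%, and only in young WT were the thinned intervals of the 2 sides apart. Both gates were chosen after values were seen.

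A few cells with genes of granulocytes, their precursors or red cells were among the cycling cells of miR-146a-/- and DKO. With 2 or more granulocyte precursor genes (Mpo, Elane and others), 0 of 0, 0 of 1, 10 of 124 and 10 of 36 kept cells were cycling. With 2 or more neutrophil genes they were 1 of 29, 0 of 50, 18 of 242 and 16 of 258, and with 2 or more erythroid genes 0 of 15, 3 of 11, 6 of 19 and 8 of 26. Cycling cells of these kinds were few in the WT libraries. In miR-146a-/-, 2473 of 2664 granulocyte precursor UMIs of cycling cells lay in 1 cell, so the summed level rests on it. Most of these precursor cells carried Csf1r alone, 8 of 10 in miR-146a-/- and 7 of 10 in DKO. The counts lean on deep cells, as the 10 precursor cells had median depths of 30116 and 29006 UMIs. Thinned, the cycling cells with 2 or more genes were 0, 0, 1 and 4 for precursors, of which 0, 0, 0 and 1 were Csf1r cells, 1, 0, 8 and 13 for neutrophil and 0, 1, 4 and 7 for erythroid genes. The other cells with them were 0, 0, 5 and 2, then 22, 34, 124 and 144, then 13, 7, 8 and 8. Free RNA of these lists was not read.

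The marker lists summed over all cycling cells gave the wider mix. T cell genes summed to 1895, 2241, 2114 and 1804 CPM, regulatory T cell genes to 267, 375, 405 and 254 and gamma delta T cell genes to 30.7, 23.3, 28.5 and 28.6. NK and ILC1 genes summed to 601, 721, 513 and 617 and ILC2 genes to 140.2, 83.7, 94.7 and 71.8. ILC2 genes were highest in young WT, and NK and ILC1 genes in treated WT. B cell genes summed to 679.9, 511, 307 and 231 and plasma cell genes to 1044, 443, 461 and 1223, B genes falling from young WT to DKO.

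Among myeloid lists, cDC1 genes summed to 648, 661, 556 and 494, cDC2 genes to 184, 222, 273 and 313, mature dendritic cell genes to 75.7, 118, 108 and 93.7 and plasmacytoid dendritic cell genes to 197, 192, 232 and 193. Genes shared by dendritic cells summed to 12949, 13457, 12823 and 14023, monocyte genes to 748, 1130.3, 2454 and 2043 and macrophage genes to 49.4, 220.4, 278 and 341. The summed level of monocyte genes was highest in miR-146a-/- and DKO. Thinned, 14.4, 20.7, 24.3 and 20.3% of cycling cells held 2 or more of them, with treated WT and DKO near each other. Neutrophil genes summed to 28.2, 0.332, 5444 and 5501, granulocyte precursor genes to 0.264, 0.996, 344 and 15.6 and erythroid genes to 0.396, 10.1, 2962 and 1937. Mast cell and basophil genes gave 19.8, 22.8, 20.6 and 21.6, platelet genes 0.923, 1.74, 0.903 and 1.26, hepatocyte genes 9.89, 9.46, 7.35 and 5.50, endothelial genes 43.6, 34.3, 32.9 and 40.1 and progenitor genes 44.4, 43.3, 32.4 and 38.4. The last 5 lists were low in each library.

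With 1 library per group, mouse, cage, sort and sequencing cannot be told apart from genotype or treatment, and the differences above compare these libraries. Cycling cells were found by 4 transcripts, so cells in early S phase with few of them were missed. Lineage rested on single genes, whose free RNA differed between libraries, and cells with more than 1 gene were not assigned. The smallest cycling lineages, such as 13 Cd79a cells in miR-146a-/-, give wide intervals. Surface proteins and DNA content were not measured.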

How the data were processed

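The authors sorted CD45+ liver cells, made 5 prime single-cell libraries (chemistry version 2) and deposited UMI counts per gene and cell, which the file headers credit to Cell Ranger 7.0.1, aligned to mm10. Each group was 1 library, and the comparisons were treated WT over young WT, miR-146a-/- over treated WT and DKO over miR-146a-/-. Libraries held 90756272, 103165826, 88706063 and 103147246 UMIs in 10985, 9120, 8393 and 10623 cells. Cells were kept and called cycling by the limits given in the report, using Python 3.11.15, NumPy 2.4.6, SciPy 1.17.1 and pandas 2.3.3, with plots in Matplotlib 3.10.9. Thinning drew UMIs at random with seed 1.

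Shares carry exact Clopper-Pearson intervals, differences Newcombe and ratios Katz intervals, and summed UMIs exact Poisson intervals. Gene ratios were log2 ratios of summed CPM with a prior of 0.5 counts, over genes with 50 CPM and 20 UMIs on 1 side, and a gene was counted at 2-fold or more. The 4 genes of the rule were left out of counts against other cells. Lists of genes were read by their counts and medians: S phase, G2 and M phase, histones, inhibitors, naive and homing, checkpoint, cytotoxic, activation, residency, glycolysis, immediate-early and interferon-stimulated genes, and 22 lists of cell type markers. Members and lists were chosen with earlier results of these data known.

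Named genes were those of the rule, the lineages and the lists, Ccl5, the 5 largest rises and falls between libraries and against other cells the 10 with the highest smallest and the 10 with the lowest largest ratio over the libraries, leaving out mitochondrial, ribosomal and receptor segment genes. Further genes of the lists, and those so described, were named after their values were seen. Alternatives changed the gene and mitochondrial limits, the UMI thresholds, the marker genes, the depth, the prior, the minimum level, the summary over cells and the scaling (TMM, edgeR 4.0.16 in R 4.3.3). The steps were tested on simulated data. Cells outside the limits were left out, and clusters were not made.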

Additional observations from a re-analysis of the deposited data

Results flagged for a closer look

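Cells with more than 6000 detected genes lay outside the limits of the comparisons, yet most of them carried the cycling signal. Of these, 106 of 143 in young WT, 228 of 427 in treated WT, 111 of 208 in miR-146a-/- and 82 of 136 in DKO had 4 or more UMIs of Mki67, Top2a, Ube2c and Birc5, or 74.1, 53.4, 53.4 and 60.3%. They are listed because the limit on detected genes left out cells with the cycling signal. They entered only the alternative without an upper limit, in which the cycling share of all kept cells was 2.11 times that of young WT in treated WT, with ratios of 0.604 for miR-146a-/- over treated WT and 0.997 for DKO over miR-146a-/-, beside 2.06, 0.616 and 1.10 with the limit. More than 1 lineage gene was found in 69, 336, 134 and 68 of all the cells over the limit, and in 37, 141, 49 and 26 of those with 4 or more UMIs. Among the latter Csf1r alone was found in 19, 23, 30 and 24, Cd79a alone in 19, 38, 3 and 7, and Cd8b1 alone in 9, 13, 12 and 5. Treated WT had the most cells over the limit and the most with more than 1 gene. How many are single large cells and how many are cells caught together was not tested.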

How the results depend on the processing

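Of 104 alternatives run on the main shares and gene counts, 98 kept the value within its interval or within 1.5 times its count and 6 moved; 0 changed direction where the interval lay on 1 side of 1. With 4 or more UMIs of the 4 genes per 10000 UMIs of the cell, the cycling share of DKO over miR-146a-/- was 0.934 (from 1.10) and the Cd8b1 share of cycling cells 1.23 (from 0.985); the cause was not tested. With a minimum of 10 CPM, 8095, 8358 and 8390 genes were tested (from 3723, 3653 and 3558), and those past 2-fold in cycling Cd8b1 cells numbered 433 for treated over young WT (from 139), 300 for miR-146a-/- over treated WT (from 88) and 237 for DKO over miR-146a-/- (from 35). The count in every library against other Cd8b1 cells became 552 (from 302), under an alternative chosen after seeing the data.

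Of 120 alternatives for single lineages and for Pttg1, all chosen after seeing the data, 109 kept their value and 11 moved, with 0 changes of direction where the interval lay on 1 side of 1. For other lineages 104 of 108 kept it. Csf1r moved on thinning in the 3 comparisons, to 1.40 (from 0.718, a change of side within counting error), 0.336 (from 0.541) and 1.77 (from 1.05). Cd4 moved to 1.20 for treated over young WT with 2 UMIs of a lineage gene. For Pttg1 5 of 12 kept it. Its ratio of cycling to other cells ranged from 3.17 to 4.96 in miR-146a-/- and from 3.31 to 5.22 in DKO, and it was 0.991 in treated WT with 2 or more UMIs of the 4 genes. No paired analysis was possible because each group had 1 library.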

Other observations

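The beta chain of the T cell receptor, read as the Trbv segment with the most UMIs in a cell, was chosen for a look after the values were seen. Among cycling Cd8b1 cells with a segment, 8 of 64 cells (12.5%) of young WT carried Trbv12-1, and 50 of 179 cells (27.9%) of treated WT Trbv1. In miR-146a-/- 16 of 104 cells (15.4%) carried Trbv29, and in DKO 47 of 143 cells (32.9%) carried Trbv16. The leading segment was thus a different one in each library. Its share was smallest in young WT, but the intervals of young WT (5.55-23.2%) and miR-146a-/- (9.06-23.8%) overlapped widely. Those of treated WT and DKO were 21.5-35.1% and 25.2-41.2%. Among other Cd8b1 cells the leaders were Trbv14 (11.8%), Trbv17 (24.2%), Trbv13-3 (24.4%) and Trbv16 (25.3%). In DKO the cycling and the other cells shared their leader, and in the remaining libraries they did not. The cycling leader came second among other cells of treated WT (Trbv1, 17.3%) and miR-146a-/- (Trbv29, 9.93%). In young WT the cycling leader had 8 cells and the next segment, Trbv13-2, had 7.

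A segment is not a clone, since many receptors use the same one, and paired receptor sequences were not used here. How many mice a library pools is unknown, so a segment carried by many cells of 1 mouse cannot be told apart from one shared by several.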
